A study of Mus musculus with 4 samples.

Results

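Dendritic cells that had been given SEA and LPS together for 6 h were compared with dendritic cells given LPS alone for 6 h, with 1 array for each. Members of the comparison were all non-control probe sets, each a group of short probes against a transcript, that carried exactly 1 gene symbol and read above a floor signal of 33.3 on at least 1 of the 2 arrays. This rule took 13338 of the 20380 probe sets with 1 gene symbol, which stand for 8881 of 12393 genes. Each gene was given the value of its probe set with the highest mean log2 signal over the 4 arrays of the series, and 8849 genes were above the floor by that probe set. The other 32 genes entered only through another of their probe sets.

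All 4 arrays of the series held CD11c+ cells labelled IL10-/-, deficient in Il10, the gene of the anti-inflammatory cytokine interleukin-10, so the LPS array carried the deficiency as well as the SEA/LPS array. Besides SEA/LPS and LPS the groups were media alone and SEA alone, also for 6 h and with 1 array each, and these are given here as context. The labels do not state doses, a tissue of origin, the number of animals or cultures behind an array, or what SEA stands for. Every array carried the same lot label. With 1 array a group the comparison has no replicate error: a difference between LPS and SEA/LPS is given as a size only, no test was made, and a difference between the 2 arrays cannot be told apart from a difference between the conditions.

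Lipopolysaccharide (LPS), a part of the outer membrane of Gram-negative bacteria, is sensed by Toll-like receptor 4 on dendritic cells. The receptor signals through NF-kappaB, MAP kinases and interferon regulatory factors, and the cells respond with cytokines, chemokines, type I interferon and a raised capacity to present antigen to T cells. The cytokines of the IL-12 family are shared pairs of chains: Il12b (p40) pairs with Il12a (p35) to form IL-12 and with Il23a (p19) to form IL-23, and Ebi3 pairs with Il27 to form IL-27. Interferon beta made by the same cells acts back on them through its receptor.

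The arrays had been scaled alike, to a trimmed mean signal of 150.1 on each, but the SEA/LPS array was dimmer at the level of the median probe set, with 45.05 against 51.5 with LPS and 52.4 and 53.2 on the other 2 arrays. Of all probe sets, 57.3% lay above the floor with SEA/LPS and 60.6% to 61.1% on the other 3 arrays. The ratio of the 3' to the 5' control probe sets of Gapdh, which goes up as RNA is shortened, was 3.12 with SEA/LPS, 2.42 with LPS, 2.21 in media and 2.69 with SEA, while that of Actb was 1.26 with SEA/LPS and 1.24 with LPS (1.20 in media, 1.37 with SEA). The 18 hybridisation-control probe sets, which read RNA added during the assay, were on average 0.24 lower with SEA/LPS on the log2 scale (mean log2 difference -0.24, SD 0.15 over the 18), and 16 of the 18 were lower. The part of these differences in the results was not tested.

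All 13 measured markers of dendritic cells were above the floor, among them Itgax, which encodes CD11c, and their summed signal was 25211 with LPS, 18951 with SEA/LPS, 20352 in media and 20771 with SEA. Most of the gap between LPS and SEA/LPS in this sum came from H2-Ab1, at 8109 with LPS and 3437 with SEA/LPS. All 9 measured macrophage and monocyte markers were above the floor as well, at a summed signal of 23331 with LPS and 23633 with SEA/LPS (21008 in media, 22505 with SEA). Of 10 T cell markers 3 were above the floor (Cd8a, Cd5 and Cd28). At the floor on both arrays were Cd3e, Cd3d, Cd3g, Cd4, Cd8b1, Cd2 and Lat, and the sum was 252 with LPS and 142 with SEA/LPS. Of 9 B cell markers 6 were above the floor (Ms4a1, Blk, Cr2, Ighm, Cd22 and Vpreb3). At the floor were Cd79a, Cd79b and Pax5, and the sum was 580 with LPS and 473 with SEA/LPS. Of 9 neutrophil markers 7 were above the floor (S100a8, Elane, Mpo, Ngp, Ltf, Mmp8 and Csf3r). At the floor were S100a9 and Camp, and the sum was 2133 with LPS and 2534 with SEA/LPS. Above the floor were also 3 of 7 NK cell markers and 5 of 8 mast cell and basophil markers. The same held for 4 of 5 erythroid and 5 of 11 stromal and epithelial markers. In RNA from a mixed culture, fewer cells of a type and less RNA per cell cannot be told apart.

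Genes were called higher or lower with SEA/LPS when the signals, each raised to the floor where it lay under it, differed at least 2-fold. By this size 329 genes were lower with SEA/LPS than with LPS (3.72% of the 8849 measured) and 132 were higher (1.49%). These shares over all genes stand beside the counts of called genes given for the lists below. Counted over probe sets, 626 were lower (4.69% of 13338) and 218 were higher (1.63%). The median log2 difference over all genes was -0.05 and the SD over genes was 0.51. Of all genes 54.2% lay below 0, and 4046 of the 8849 lay above 0. Differences of 4-fold or more were found in 14 genes that were lower and 6 that were higher. Of the lower genes 80 lay at the floor with SEA/LPS, and of the higher genes 34 lay at the floor with LPS, so their folds are lower bounds.

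The split of the 461 called genes moved with the way the arrays were scaled. As deposited 28.6% of them were higher with SEA/LPS. Scaling each array to its 75th percentile gave 191 higher and 292 lower genes (39.5% higher), quantile normalization gave 198 and 259 (43.3% higher), and scaling to the hybridisation controls gave 299 and 134 (69.1% higher). That last scaling moved the median of all genes to 0.19, from -0.05 as deposited. The share of called genes went down with signal: among the dimmest 2950 genes 4.41% were lower and 1.86% higher, and among the brightest 2950 genes 2.88% were lower and 0.949% higher. The median log2 difference was -0.17 in the dimmest, -0.08 in the middle and 0.09 in the brightest of these equal groups.

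**Figure D1:**
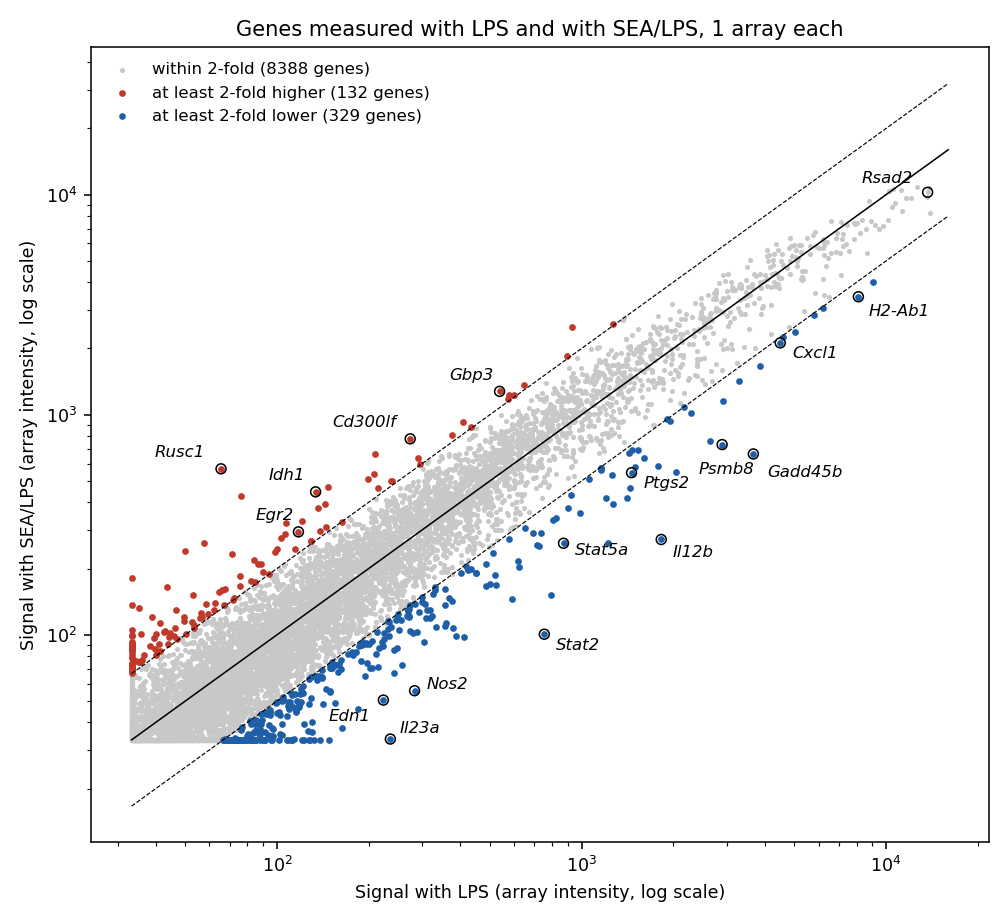
Signal of each measured gene with LPS (x axis) and with SEA/LPS (y axis), both as array intensity on log scales with values under the floor drawn at the floor of 33.3; each point is 1 gene on 1 array per condition, the solid line marks equal signals and the dashed lines 2-fold differences. The 329 blue genes lie at least 2-fold under the line and include Il12b, Il23a, Stat2 and Nos2, and the 132 red genes lie at least 2-fold above it and include Rusc1 and Egr2.

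The 20 genes with the largest differences in each direction among those above the floor on both arrays included the cytokine chains Il23a and Il12b, Stat2, Gadd45b and Nos2 on the lower side. For 5 genes of the LPS response whose signals were lower with SEA/LPS, the promoter sequence is shown, since the promoter is where the factors downstream of Toll-like receptor 4 bind. The sequences are the 250 bases before the RefSeq start, from the GRCm38.p6 assembly, all on the plus strand, with matches to the kappaB consensus in capitals for Il12b, Ebi3, Cxcl1 and Nfkb2, and matches to the core of the interferon-stimulated response element (GAAANNGAA, either strand) in capitals for Stat2. The kappaB consensus was GGGR followed by NNYYCC on either strand, where R is A or G, Y is C or T and N is any base.
Il12b, chr11:44399813-44400062: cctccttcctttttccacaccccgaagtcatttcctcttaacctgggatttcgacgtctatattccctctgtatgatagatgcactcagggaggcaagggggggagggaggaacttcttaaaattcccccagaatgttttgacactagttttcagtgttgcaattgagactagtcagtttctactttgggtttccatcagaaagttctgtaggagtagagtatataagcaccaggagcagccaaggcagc
Ebi3, chr17:55952373-55952622: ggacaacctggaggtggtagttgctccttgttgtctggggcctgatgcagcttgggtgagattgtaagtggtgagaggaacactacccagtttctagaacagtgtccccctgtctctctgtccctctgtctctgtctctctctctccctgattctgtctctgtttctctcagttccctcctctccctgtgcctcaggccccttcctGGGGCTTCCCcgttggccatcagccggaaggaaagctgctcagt
Cxcl1, chr5:90890995-90891244: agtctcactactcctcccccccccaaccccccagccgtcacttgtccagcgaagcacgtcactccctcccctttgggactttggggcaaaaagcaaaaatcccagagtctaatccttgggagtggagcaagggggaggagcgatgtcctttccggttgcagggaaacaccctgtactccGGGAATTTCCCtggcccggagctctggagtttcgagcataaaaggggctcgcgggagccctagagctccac
Nfkb2, chr19:46304487-46304736: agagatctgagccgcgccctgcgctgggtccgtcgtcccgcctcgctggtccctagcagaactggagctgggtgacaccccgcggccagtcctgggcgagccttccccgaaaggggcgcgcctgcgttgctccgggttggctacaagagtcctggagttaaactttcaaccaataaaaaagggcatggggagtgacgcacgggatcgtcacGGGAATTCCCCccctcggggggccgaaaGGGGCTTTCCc
Stat2, chr10:128270248-128270497: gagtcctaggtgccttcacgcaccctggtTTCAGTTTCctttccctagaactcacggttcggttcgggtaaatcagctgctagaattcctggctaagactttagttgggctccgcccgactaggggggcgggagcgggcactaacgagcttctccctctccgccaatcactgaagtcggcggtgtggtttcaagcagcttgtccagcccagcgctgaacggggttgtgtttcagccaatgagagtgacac
The Il12b window held no kappaB match by this consensus, the Ebi3 window held 1 that started 44 bases before the start, the Cxcl1 window held 2 that overlap, and the Nfkb2 window, for 1 of 3 start sites in the table, held 3, of which 2 overlap. The Stat2 window held 1 match to the response element core, 221 bases before the start. A match is a description of the letters and was not tied to binding. A site that departs from the consensus by a letter was not counted, so a window without a match may still hold one.

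The IL-12 family chains Il12b, Il23a, Ebi3 and Il12a were all at least 2-fold lower with SEA/LPS. Il12b, the p40 chain of IL-12 and IL-23, read 271 with SEA/LPS and 1827 with LPS, beside 30.8 in media and 34.7 with SEA, and was 6.74-fold lower. The LPS array stood above the other 3, and its other probe set in the rule was lower too, at a log2 difference (SEA/LPS minus LPS, as given for other probe sets and for medians throughout) of -2.25. Il23a, the p19 chain of IL-23, read 33.6 with SEA/LPS and 236 with LPS, beside 5.0 in media and 5.4 with SEA, and was 7.01-fold lower. The media and SEA values lay under the floor and the SEA/LPS value lay just above it. Ebi3, the EBI3 chain of IL-27, read 417 with SEA/LPS and 1407 with LPS, beside 415 in media and 435 with SEA, and was 3.37-fold lower. Its SEA/LPS value lay beside those of media and SEA. Il12a, the p35 chain of IL-12, read 53.8 with SEA/LPS and 114 with LPS, beside 36.2 in media and 35.6 with SEA, and was 2.12-fold lower, a difference that came to -0.96 by quantile normalization and -0.85 by scaling to the hybridisation controls on the log2 scale, both inside 2-fold. Il27, the partner of Ebi3, was not among the measured genes.

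Il10 itself, the gene named deficient in the labels, read 93.0 with SEA/LPS and 304 with LPS, beside 37.9 in media and 52.1 with SEA, and was 3.26-fold lower. It was highest with LPS and lower with SEA/LPS. Nothing used here says whether this probe set lies inside the part that was altered in the mutant, and the signal is therefore no check of the label. Ifnb1, which encodes interferon beta, read 51.4 with SEA/LPS and 129 with LPS, beside 37.3 in media and 29.8 with SEA, and was 2.51-fold lower. In all, 6 of 18 measured cytokine genes were at least 2-fold lower (Il23a, Il12b, Ebi3, Il10, Ifnb1 and Il12a), beside 3.72% of all genes, none was higher, and the list median was -0.52, against -0.05 over all genes. The median stayed below 0 under each of the 4 scalings and was nearest 0, at -0.25, with the hybridisation controls.

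The other measured cytokines were within 2-fold. Il6, an inducer of the acute phase response, read 2969.5 with SEA/LPS and 5389 with LPS, beside 42.3 in media and 139.5 with SEA (log2 difference -0.86). Tnf, the main early inflammatory cytokine of these cells, read 555 with SEA/LPS and 514 with LPS, beside 43.6 in media and 81.3 with SEA, which is a difference of 0.11 and leaves LPS and SEA/LPS beside each other. Il1b, the precursor of interleukin-1 beta, read 5953 with SEA/LPS and 7411.5 with LPS, beside 367 in media and 1016 with SEA (log2 difference -0.32). Il6, Tnf and Il1b were named after their values were seen, as cytokines of the same response that stayed within 2-fold.

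Among 10 genes of the IL-1 family and its receptors 1 was higher and none was lower (1.49% and 3.72% of all genes). The list median was -0.01 (0.23 with the hybridisation controls). Il18bp, the secreted inhibitor of interleukin-18, read 74.3 with SEA/LPS and 31.7 with LPS, beside 23.9 in media and 30.2 with SEA, and was at least 2.23-fold higher, with the LPS value under the floor. Il18 itself read 87.3 with SEA/LPS and 151 with LPS (log2 difference -0.79), and Il1rn, the antagonist of the IL-1 receptor, read 1725 with SEA/LPS and 3227 with LPS (log2 difference -0.90), with its other probe sets at -2.54 and -0.63. Il1r2, the decoy receptor for IL-1, read 364 with SEA/LPS and 228 with LPS (log2 difference 0.67). By the probe sets used Il18 and Il1rn leaned lower and Il1r2 leaned higher, all within 2-fold, while 1 of the 3 probe sets of Il1rn was more than 2-fold lower.

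Chemokines lay below 0 in 15 of 19 measured genes, beside 54.2% of all genes. At least 2-fold lower were 2 of them, beside 3.72% of all genes. The median of -0.32 stayed below 0 under each scaling. Cxcl1, a neutrophil attractant, read 2121 with SEA/LPS and 4491 with LPS, beside 77.2 in media and 187 with SEA, and was 2.12-fold lower. Ccl3, an attractant of monocytes and T cells, read 2245 with SEA/LPS and 4578 with LPS, beside 361 in media and 403 with SEA, and was 2.04-fold lower. Both remained far above media with SEA/LPS and lay at about the 2-fold mark against LPS. Scaled to the hybridisation controls, Cxcl1 and Ccl3 came to -0.84 and -0.79 on the log2 scale, inside 2-fold. Ccl2, the main monocyte attractant, read 753 with SEA/LPS and 1382 with LPS (log2 difference -0.88), and Cxcl16, a membrane-bound chemokine and scavenger receptor, read 2335 with SEA/LPS and 4181 with LPS (log2 difference -0.84).

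The chemokine receptors showed 1 higher gene of 9 and none lower (1.49% and 3.72% of all genes). Their median of -0.14 turned to 0.01 with the hybridisation controls. Ccr2, the receptor that brings monocytes out of the blood, read 81.3 with SEA/LPS and 36.7 with LPS, beside 319 in media and 277 with SEA, and was 2.22-fold higher. Its LPS value lay just above the floor, and its other probe set came to 0.01. By the probe set used it was high without LPS and low with it, and the SEA/LPS value lay between. Ccr1 read 1390.2 with SEA/LPS and 765 with LPS, beside 946 in media and 1589.9 with SEA (log2 difference 0.86), with the LPS array the lowest of the 4 and its other probe set at -0.28. Ccr7, the receptor that guides mature dendritic cells to lymph nodes, read 708 with SEA/LPS and 1175 with LPS, beside 295.5 in media and 238 with SEA (log2 difference -0.73), with the LPS array the highest.

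In the TNF superfamily 2 of 18 measured genes were lower and none higher (3.72% and 1.49% of all genes), and the median of -0.30 stayed below 0 under each scaling. Cd70, the ligand of the T cell costimulator CD27, read 62.5 with SEA/LPS and 135.5 with LPS, beside 46.6 in media and 44.8 with SEA, and was 2.17-fold lower. Fasl, the ligand of the death receptor Fas, read 17.2 with SEA/LPS and 73.9 with LPS, beside 26.9 in media and 53.7 with SEA, and was at least 2.22-fold lower, with SEA/LPS under the floor. Tnfsf4, the OX40 ligand that favours Th2 responses, read 244 with SEA/LPS and 421 with LPS, beside 95.6 in media and 142 with SEA (log2 difference -0.78). None of the 17 costimulators and maturation genes was called, at a median of -0.17 that turned to 0.07 with the hybridisation controls. Cd40, the receptor through which T cells license dendritic cells, read 788 with SEA/LPS and 1224 with LPS, beside 39.5 in media and 46.1 with SEA (log2 difference -0.64), so it was high on both LPS arrays. Icosl, the ligand of ICOS, leaned the other way at 154 with SEA/LPS and 90.7 with LPS (log2 difference 0.77).

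By the probe sets used, no gene of 18 Toll-like receptors and adaptors was called, and the median was 0.03. Tlr4, the LPS receptor itself, read 211 with SEA/LPS and 106 with LPS, beside 195 in media and 268 with SEA, a log2 difference of 0.99 that lay just inside 2-fold, and its other, dimmer probe set came to 1.5, past 2-fold. The LPS array was the lowest of the 4 for Tlr4 and SEA/LPS lay between media and SEA. Tirap, an adaptor of the receptor, read 90.2 with SEA/LPS and 156.5 with LPS (log2 difference -0.80), and Ikbke, a kinase upstream of interferon regulatory factors, read 278 with SEA/LPS and 452 with LPS (log2 difference -0.70). Tollip came to -0.60 by the probe set used. Its other probe set came to -2.36, past 2-fold, at 48.8 with SEA/LPS and 249.9 with LPS.

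NF-kappaB genes went both ways. Of 19 measured, 4 were lower and 2 higher (3.72% and 1.49% of all genes), at a median of -0.21 (0.03 with the hybridisation controls). Nfkbib, which encodes the inhibitor IkappaB beta, read 552 with SEA/LPS and 2045 with LPS, beside 529 in media and 333.5 with SEA, and was 3.71-fold lower. Nfkb2, the p100 subunit of the alternative pathway, read 465.5 with SEA/LPS and 1444 with LPS, beside 469 in media and 416 with SEA, and was 3.1-fold lower, and its other probe set came to -0.80. For Nfkbib and Nfkb2 the LPS array was high and SEA/LPS lay beside media. Rel, the c-Rel subunit, read 191 with SEA/LPS and 449 with LPS, beside 74.8 in media and 65.5 with SEA, and was 2.35-fold lower. Tnfaip3, which encodes the ubiquitin-editing inhibitor A20, read 191 with SEA/LPS and 449 with LPS, beside 91.5 in media and 83.7 with SEA, and was 2.35-fold lower. Rel and Tnfaip3 kept SEA/LPS values above media. The 2 higher genes were the regulatory subunit of the IkappaB kinase, Ikbkg, at 246 with SEA/LPS and 99.9 with LPS, beside 241 in media and 321 with SEA, and the ubiquitin ligase Birc3, at 805 with SEA/LPS and 376 with LPS, beside 435 in media and 489 with SEA. Ikbkg was lowest with LPS, whereas Birc3 was highest with SEA/LPS, and they were 2.47-fold higher and 2.14-fold higher; the other probe sets of Ikbkg came to 0.31 and 0.70. Nfkbia, the IkappaB alpha gene, was chosen for comparison after its value was seen and read 9665.5 with SEA/LPS and 12035 with LPS (log2 difference -0.32), with its 4 probe sets between -0.93 and 0.087.

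MAP kinase genes and their phosphatases had 3 lower members of 19 and none higher (3.72% and 1.49% of all genes). The list median was -0.20 (0.04 with the hybridisation controls). Gadd45b, a stress-induced activator of the p38 and JNK cascades, read 663 with SEA/LPS and 3665 with LPS, beside 714 in media and 567 with SEA, and was 5.53-fold lower. The LPS array stood alone for Gadd45b and SEA/LPS lay between media and SEA, but its other probe sets came to -1.33 and -0.07. Gadd45g, of the same family, read 68.1 with SEA/LPS and 159 with LPS, beside 72.7 in media and 74.8 with SEA, and was 2.33-fold lower. Dusp2, a phosphatase of nuclear MAP kinases, read 56.5 with SEA/LPS and 145 with LPS, beside 66.8 in media and 43.1 with SEA, and was 2.57-fold lower, while Dusp6, a phosphatase of ERK, read 46.7 with SEA/LPS and 92.8 with LPS, beside 143 in media and 223 with SEA (log2 difference -0.99), just inside 2-fold and lowest with SEA/LPS.

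Immediate early factors went both ways, with 2 higher and 3 lower of 21 (1.49% and 3.72% of all genes). The list median was -0.13 (0.11 with the hybridisation controls). Egr2, a zinc finger factor that limits activation in lymphoid and myeloid cells, read 294 with SEA/LPS and 118 with LPS, beside 442 in media and 578 with SEA, and was 2.5-fold higher. It was 1 of only 2 genes with several probe sets in the rule that were all at least 2-fold higher, the other probe set of Egr2 coming to 1.85. Egr3, its close relative, read 101 with SEA/LPS and 35.7 with LPS, beside 47.0 in media and 69.6 with SEA, and was 2.83-fold higher, highest with SEA/LPS. Jun, a subunit of AP-1, read 412 with SEA/LPS and 212 with LPS, beside 896 in media and 580.1 with SEA (log2 difference 0.96), and Ier2, another immediate early gene, read 332 with SEA/LPS and 175 with LPS, beside 501 in media and 631 with SEA (log2 difference 0.92). Egr2, Jun and Ier2 were all lowest with LPS, and SEA/LPS lay between LPS and media; Jun and Ier2 were picked out after their values were seen. On the lower side, Batf, a partner of JUN and IRF factors, read 70.5 with SEA/LPS and 201 with LPS, beside 150.1 in media and 126 with SEA, and was 2.86-fold lower. Atf3, a repressor induced by Toll-like receptors, read 667 with SEA/LPS and 1432 with LPS, beside 668 in media and 423.5 with SEA, and was 2.15-fold lower. Nr4a1, an orphan nuclear receptor, read 49.7 with SEA/LPS and 100.3 with LPS, beside 48.6 in media and 92.7 with SEA, and was 2.02-fold lower. For Batf, Atf3 and Nr4a1 the LPS array was the highest of the 4.

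STAT factors were lower in 4 genes, and with Ifnb1 and Irf8 they made up the 6 lower members of the 29 measured interferon regulatory factors, STATs and receptors (3.72% of all genes were lower); none was higher and the median was -0.10 (0.14 with the hybridisation controls). Stat2, which carries the type I interferon signal to the nucleus, read 101 with SEA/LPS and 755 with LPS, beside 78.6 in media and 82.3 with SEA, and was 7.5-fold lower. This was the largest lower difference among the genes above the floor on both arrays, and the SEA/LPS value lay near media and SEA; the other probe set of Stat2 came to -1.67. Stat5a, which acts downstream of GM-CSF, read 261 with SEA/LPS and 873 with LPS, beside 177 in media and 121 with SEA, and was 3.35-fold lower, with its other probe set at -3.23. Stat5b, the near copy of Stat5a on the same chromosome, read 87.1 with SEA/LPS and 216 with LPS, beside 132 in media and 129.7 with SEA, and was 2.48-fold lower, with its other probe set at -1.38. Stat2, Stat5a and Stat5b were thus lower by every probe set in the rule.

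Stat3, the factor downstream of IL-10 and IL-6, read 690.1 with SEA/LPS and 1537 with LPS, beside 608 in media and 475 with SEA, and was 2.23-fold lower by the probe set used. Its other probe sets came to 0.33 and 0.04, so the probe sets of Stat3 did not give 1 direction. Irf8, a lineage factor of dendritic cells, read 955 with SEA/LPS and 1911 with LPS, beside 489.6 in media and 531 with SEA, and was 2.0-fold lower, with its other probe set at -1.67. Ifngr1, a chain of the interferon gamma receptor, read 251 with SEA/LPS and 133 with LPS, beside 261 in media and 319 with SEA (log2 difference 0.91), lowest with LPS. Stat4 read 61.6 with SEA/LPS and 11.7 with LPS, beside 10.5 in media and 5.4 with SEA, with only SEA/LPS above the floor, so its log2 difference was at least 0.89; Ifngr1 and Stat4 were picked out after their values were seen.

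The antiviral genes that interferon induces were not called in either direction: 0 of 26 were lower or higher, beside 3.72% lower and 1.49% higher of all genes. At those shares a list of 26 would hold few called genes. The median was -0.01 (0.23 with the hybridisation controls). Rsad2, the antiviral enzyme viperin, read 10251 with SEA/LPS and 13687.5 with LPS, beside 434.5 in media and 473 with SEA (log2 difference -0.42), high on both LPS arrays, with its other probe sets at 0.05 and -0.12. Cmpk2, its neighbour and a nucleotide kinase, read 3428.5 with SEA/LPS and 6486.5 with LPS, beside 78.1 in media and 85.6 with SEA (log2 difference -0.92), the largest difference of the list. Oas1a, a sensor of double-stranded RNA, read 1790.3 with SEA/LPS and 2393 with LPS (log2 difference -0.42). Ifit1 and Cxcl10, named after their values were seen as further interferon-induced genes, came to -0.29 and -0.10. The difference in Stat2 thus stands beside differences within 2-fold in the antiviral genes.

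Guanylate-binding proteins and immunity-related GTPases, which act against intracellular pathogens, had 1 higher gene of 9 and none lower (1.49% and 3.72% of all genes). The list median was -0.0027 (0.24 with the hybridisation controls). Gbp3 read 1277 with SEA/LPS and 538 with LPS, beside 98.6 in media and 124 with SEA, and was 2.37-fold higher and highest with SEA/LPS. Irgm1 read 1095 with SEA/LPS and 1241 with LPS (log2 difference -0.18), and Gbp6 read 857 with SEA/LPS and 705 with LPS (log2 difference 0.28). Members of this family are alike in sequence, so a probe set may read more than its named gene.

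Class I antigen presentation genes lay mostly below 0, in 9 of 12 genes, beside 54.2% of all genes. Of the 12, 2 were at least 2-fold lower and none higher (3.72% and 1.49% of all genes). The median of -0.59 was the lowest of the 46 lists and was -0.35 with the hybridisation controls. Tapbp, the peptide-loading chaperone tapasin, read 1665 with SEA/LPS and 3862 with LPS, beside 871 in media and 805 with SEA, and was 2.32-fold lower, with its other probe set at -3.15. H2-K1, a class I heavy chain, read 4018 with SEA/LPS and 9023 with LPS, beside 7262 in media and 6401 with SEA, and was 2.25-fold lower, lowest with SEA/LPS. Its other probe sets came to -2.33, -1.37 and -0.79, and as class I genes are alike in sequence they may read other heavy chains too. Tap1, a chain of the peptide transporter, read 1584 with SEA/LPS and 2670.1 with LPS (log2 difference -0.75, and -1.24 by its other probe set), and its partner Tap2 read 285 with SEA/LPS and 493 with LPS (log2 difference -0.79).

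The proteasome makes the peptides that class I molecules present, and its genes differed among themselves. Psmb8, an inducible subunit of the immunoproteasome, read 732 with SEA/LPS and 2895 with LPS, beside 1476 in media and 1163 with SEA, and was 3.96-fold lower, lowest with SEA/LPS. Psmb4, a constitutive subunit, read 1014 with SEA/LPS and 2289 with LPS, beside 1524 in media and 1622 with SEA, and was 2.26-fold lower, with its other probe set at -0.19. Psme3, an activator cap, read 130.0 with SEA/LPS and 270.2 with LPS, beside 285 in media and 208 with SEA, and was 2.08-fold lower, but its other probe set came to 0.30. Psmc1, an ATPase of the base, went the other way at 120.3 with SEA/LPS and 49.6 with LPS, beside 134 in media and 129.6 with SEA, and was 2.43-fold higher. Over the 25 measured genes 3 were lower and 1 was higher (3.72% and 1.49% of all genes). Of the 25, 18 lay above 0, beside 4046 of all 8849 genes. The median was 0.26, opposite in sign to the differences of the 3 lower genes.

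Among 13 class II genes 1 was lower and none was higher (3.72% and 1.49% of all genes). The list median was -0.10 (0.14 with the hybridisation controls). H2-Ab1, the beta chain of the class II molecule I-A, read 3437 with SEA/LPS and 8109 with LPS, beside 5558 in media and 6114 with SEA, and was 2.36-fold lower, lowest with SEA/LPS, and its 3 probe sets came to -1.24, -1.77 and -1.66. H2-Eb1, the beta chain of I-E, read 4305 with SEA/LPS and 7085 with LPS (log2 difference -0.72). Ciita, the master regulator of class II genes, read 45.1 with SEA/LPS and 72.4 with LPS (log2 difference -0.68). H2-DMa, which helps to load peptides, was higher within 2-fold at 769.8 with SEA/LPS and 482 with LPS (log2 difference 0.68), so the list did not move as a block. H2-Ab1 and Irf8 are also dendritic cell markers, and 10 of the 13 marker genes lay below 0 (median -0.27). Below 0 were also 2 of 9 macrophage and monocyte markers (median 0.10) and 54.2% of all genes. The part of cell composition in these values was not tested.

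Of 12 C-type lectin receptors 2 were higher (1.49% of all genes), none was lower and 8 lay above 0, beside 4046 of all 8849 genes. The median of 0.29 stayed above 0 under each scaling. Clec5a, a receptor that signals through DAP12, read 276 with SEA/LPS and 103 with LPS, beside 188 in media and 138 with SEA, and was 2.68-fold higher, highest with SEA/LPS. Clec4a2, an inhibitory receptor, read 876 with SEA/LPS and 433 with LPS, beside 1238 in media and 1125 with SEA, and was 2.02-fold higher, with its other probe set at 0.16. Clec7a, the beta-glucan receptor dectin-1, read 2681 with SEA/LPS and 1369.5 with LPS, beside 2389.6 in media and 3023.5 with SEA (log2 difference 0.97), and Clec4n, the mannan receptor dectin-2, read 4293 with SEA/LPS and 2907 with LPS, beside 4734 in media and 5240.5 with SEA (log2 difference 0.56). Clec4a2, Clec7a and Clec4n were each lowest with LPS, and SEA/LPS lay nearer to media.

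Of 19 Fc receptors and Syk pathway genes none was called, 13 lay above 0 (4046 of all 8849 genes did) and the median was 0.20. Fcgr3, a receptor for immune complexes, read 1997 with SEA/LPS and 1072 with LPS, beside 2235 in media and 2862 with SEA (log2 difference 0.90), with the LPS array the lowest. Ptpn6, the phosphatase SHP-1, read 362 with SEA/LPS and 670.4 with LPS (log2 difference -0.89), but its other probe set came to 0.63, so the probe sets did not give 1 direction. Of 13 scavenger and uptake receptors none was called, and the median of -0.28 stayed below 0 under each scaling. Over all settings run it came to 0.07 at its highest. Msr1, the class A scavenger receptor, read 806 with SEA/LPS and 445.5 with LPS, beside 726 in media and 771 with SEA (log2 difference 0.86), whereas its relative Marco read 119 with SEA/LPS and 219 with LPS, beside 68.6 in media and 47.2 with SEA (log2 difference -0.88). Msr1 was lowest and Marco highest with LPS.

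Adhesion genes had 4 lower members of 17 and none higher (3.72% and 1.49% of all genes), at a median of 0.01 (-0.01 by quantile normalization), opposite in sign to the called members. Itga5, the fibronectin receptor chain, read 74.2 with SEA/LPS and 198 with LPS, beside 99.6 in media and 28.9 with SEA, and was 2.66-fold lower, with its other probe set at -2.16. Itgav, the alpha V chain that pairs with several beta chains, read 511 with SEA/LPS and 1055 with LPS, beside 273 in media and 262 with SEA, and was 2.07-fold lower, with its other probe sets at -1.56 and -0.93. Cd81, a tetraspanin that associates with integrins, read 532 with SEA/LPS and 1255.5 with LPS, beside 785 in media and 846 with SEA, and was 2.36-fold lower. Itgal, the alpha chain of LFA-1, read 65.3 with SEA/LPS and 137 with LPS, beside 89.2 in media and 95.2 with SEA, and was 2.1-fold lower. All 4 were highest with LPS. No gene of 11 measured complement genes was called (median -0.15, and 0.09 with the hybridisation controls).

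**Figure D2:**
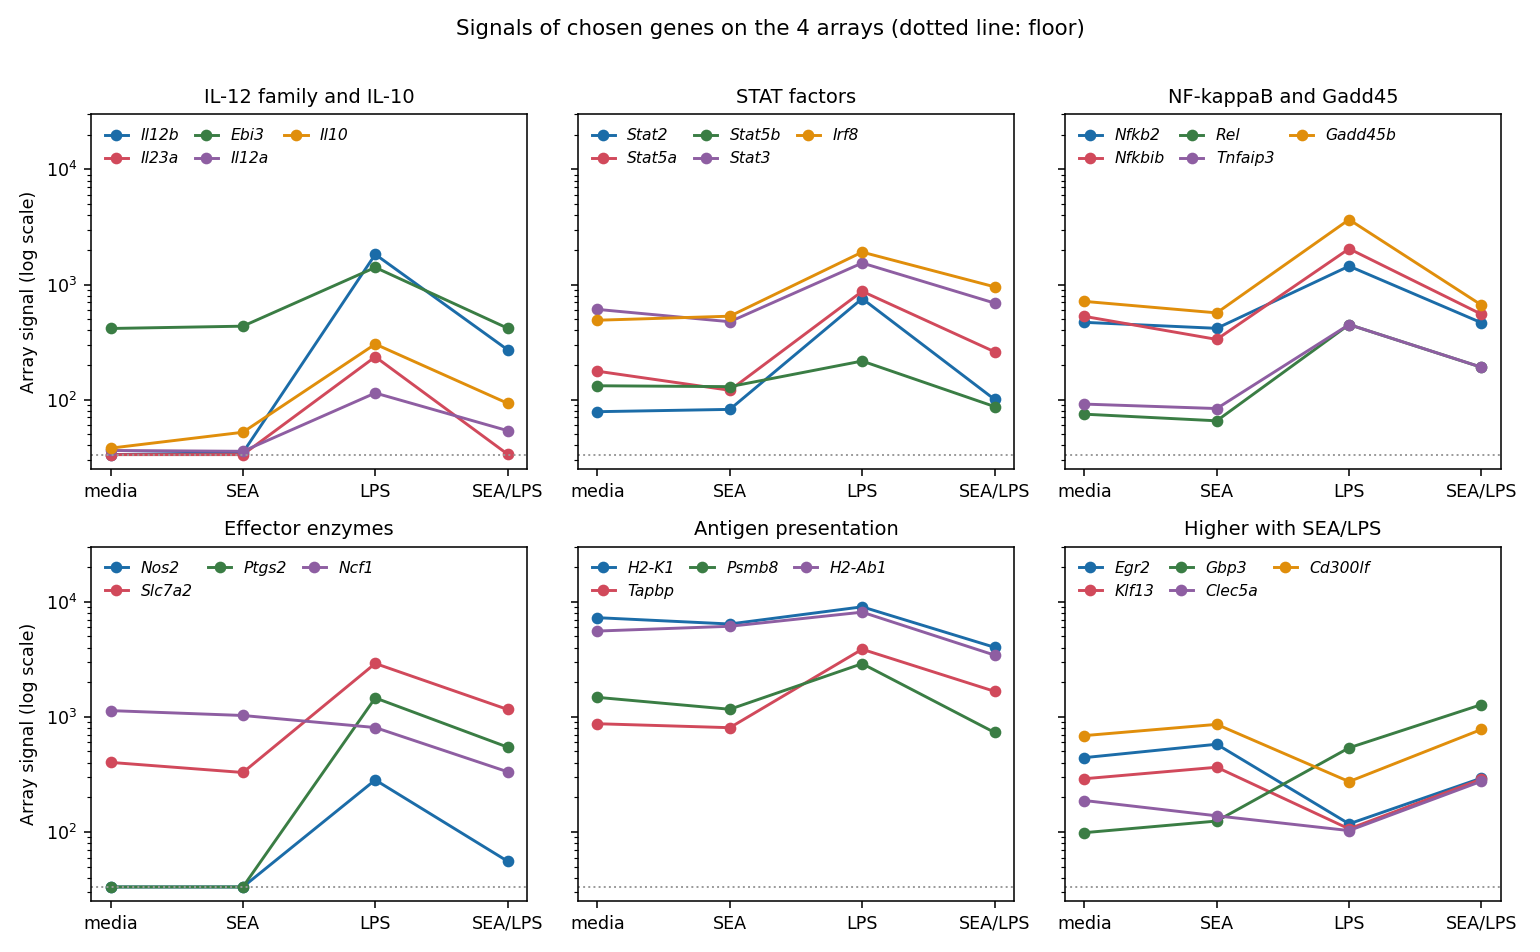
Array signal (y axis, log scale, values under the floor drawn at the dotted floor line) of chosen genes on the 4 arrays (x axis), 1 array per condition, in 6 groups by role; each point is 1 array and the lines only join the points of a gene. In the first 3 panels the LPS array is the highest of the 4 for each gene, as for Il12b at 1827 against 271 with SEA/LPS, and in the last panel 4 of 5 genes are lowest with LPS while Gbp3 is highest with SEA/LPS. The genes were chosen for a difference between LPS and SEA/LPS, which favours such patterns.

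Nos2, the inducible nitric oxide synthase, read 55.7 with SEA/LPS and 283 with LPS, beside 2.9 in media and 2.6 with SEA, and was 5.08-fold lower. Only the 2 LPS arrays were above the floor for Nos2. Slc7a2, a transporter that brings in arginine, the substrate of that enzyme, read 1159 with SEA/LPS and 2907 with LPS, beside 402 in media and 328.5 with SEA, and was 2.51-fold lower, but its other probe sets came to -0.40 and 0.78. Over 12 genes of nitric oxide, arginine and itaconate metabolism 2 were lower and none was higher (3.72% and 1.49% of all genes). The list median was 0.03. Arg1, which competes for arginine, was looked at after its value was seen and read 5577 with SEA/LPS and 4422 with LPS, beside 4874 in media and 6017 with SEA (log2 difference 0.33).

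Ptgs2, the inducible cyclooxygenase of prostaglandin synthesis, read 545.5 with SEA/LPS and 1459 with LPS, beside 4.1 in media and 16.7 with SEA, and was 2.68-fold lower, with its other probe set at -1.56. It was the only called gene of 12 in that list (median -0.09, and 0.24 with the hybridisation controls). Alox5ap, the activating protein of leukotriene synthesis, read 2339 with SEA/LPS and 1683 with LPS (log2 difference 0.47). Ncf1, the p47 organiser of the phagocyte NADPH oxidase, read 333 with SEA/LPS and 807 with LPS, beside 1132 in media and 1027 with SEA, and was 2.42-fold lower, with its other probe set at -1.63, and was lowest with SEA/LPS. The other 6 of the 7 measured oxidase genes lay above 0, beside 4046 of all 8849 genes, and the median was 0.31. Cyba, the membrane subunit, read 5604 with SEA/LPS and 4068 with LPS (log2 difference 0.46).

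Of 22 ATF4 and amino acid stress genes 3 were lower and 1 higher (3.72% and 1.49% of all genes), at a median of -0.10 (0.11 with the hybridisation controls). Ppp1r15a, which encodes the phosphatase subunit GADD34, read 107 with SEA/LPS and 379 with LPS, beside 209 in media and 167 with SEA, and was 3.53-fold lower, lowest with SEA/LPS. Atf4, the factor that drives this response, read 357 with SEA/LPS and 986 with LPS, beside 950.4 in media and 932 with SEA, and was 2.76-fold lower, while its other probe set came to 0.15. Phgdh, the entry enzyme of serine synthesis, read 29.8 with SEA/LPS and 138 with LPS, beside 140.3 in media and 221 with SEA, and was at least 4.15-fold lower, with SEA/LPS under the floor; its other probe set came to -0.24. Slc1a5, a glutamine transporter, read 81.7 with SEA/LPS and 19.8 with LPS, beside 259 in media and 193 with SEA, and was at least 2.45-fold higher, with LPS under the floor. Atf4 and Phgdh thus differed between their own probe sets.

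Among tRNA synthetases and initiation factors 1 of 20 was lower and 1 higher (3.72% and 1.49% of all genes), at a median of 0.20. Sars, the seryl-tRNA synthetase, read 37.8 with SEA/LPS and 164 with LPS, beside 209 in media and 238 with SEA, and was 4.34-fold lower, but its other probe set came to 0.09. Yars, the tyrosyl-tRNA synthetase, read 121 with SEA/LPS and 38.8 with LPS, beside 177 in media and 157 with SEA, and was 3.12-fold higher, lowest with LPS. Of 21 heat shock and chaperone genes Dnajb1, a co-chaperone of HSP70, was the only called gene, at 137.5 with SEA/LPS and 306 with LPS, beside 373.5 in media and 348 with SEA, and was 2.22-fold lower, with its other probe set at -0.42 (list median -0.07, and 0.16 with the hybridisation controls). Hspa1b came to -0.78 by the probe set used, but its other probe sets came to -1.57 and -1.42, past 2-fold. None of 19 Nrf2 and antioxidant genes was called (median -0.03, and 0.21 with the hybridisation controls), but Nfe2l2, which encodes Nrf2, read 1625 with SEA/LPS and 911.5 with LPS, beside 1549 in media and 1399.6 with SEA (log2 difference 0.83), Nqo1 read 135 with SEA/LPS and 79.1 with LPS, beside 156 in media and 154.5 with SEA (log2 difference 0.78) and Hmox1 read 998 with SEA/LPS and 626 with LPS, beside 1117 in media and 952 with SEA (log2 difference 0.67). For these 3 genes the LPS array was the lowest of the 4.

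Energy metabolism genes had list medians above 0. Of 17 genes of the TCA cycle and its supply 2 were higher and none lower, beside 1.49% and 3.72% of all genes (median 0.09). Idh1, the cytosolic isocitrate dehydrogenase, read 446 with SEA/LPS and 134 with LPS, beside 2390.4 in media and 1901 with SEA, and was 3.33-fold higher, far under media on both LPS arrays; its other probe set came to 0.26. Pdk1, a kinase that shuts pyruvate out of the cycle, read 151 with SEA/LPS and 52.9 with LPS, beside 311 in media and 277 with SEA, and was 2.86-fold higher, with its other probe set at 0.35. Of 24 respiratory chain genes 15 lay above 0, beside 4046 of all 8849 genes, and the median was 0.28. The 1 called gene was Uqcrc1, a core subunit of complex III. It was lower at 571 with SEA/LPS and 1159.7 with LPS, beside 1348 in media and 997 with SEA, or 2.03-fold lower. Of 12 ribosomal protein genes 11 lay above 0 (median 0.24), beside 4046 of all 8849 genes. None of the 12 was called, and the widest was Rps9 at 2513 with SEA/LPS and 1718 with LPS (log2 difference 0.55). These medians stand beside 0.09 in the brightest genes and stayed above 0 under each scaling. Over all settings run, the lowest median was -0.02 for the TCA cycle, 0.05 for the respiratory chain and 0.21 for the ribosomal proteins.

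Among 21 glycolysis and hypoxia genes Pdk1 was higher and Slc16a3, a lactate exporter, was lower at 138 with SEA/LPS and 283 with LPS, beside 651 in media and 408 with SEA, or 2.05-fold lower (list median 0.15). Pkm, the pyruvate kinase, read 895 with SEA/LPS and 1711 with LPS (log2 difference -0.93). In cholesterol and fatty acid synthesis the called gene of 19 was Mvd, of the mevalonate pathway, at 99.1 with SEA/LPS and 31.0 with LPS, beside 156 in media and 163 with SEA and at least 2.98-fold higher, but its other probe set came to -1.05, at least 2-fold the other way. Cyp51, a sterol demethylase, read 116 with SEA/LPS and 59.5 with LPS, beside 82.8 in media and 77.2 with SEA (log2 difference 0.96). None of 15 LXR, PPAR and lipid handling genes was called (median 0.01), and the widest was the cholesterol exporter Abca1, which read 1819 with SEA/LPS and 968 with LPS, beside 1057 in media and 1421 with SEA (log2 difference 0.91), highest with SEA/LPS, with its other probe sets at 0.58 and 1.21.

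Of 26 cell cycle genes 1 was higher and 1 lower (1.49% and 3.72% of all genes), at a median of 0.05. Ccnd2, a G1 cyclin, read 3054 with SEA/LPS and 6227 with LPS, beside 786 in media and 925 with SEA, and was 2.04-fold lower, while its other probe sets ran from -2.07 to 0.05. Cdk1, the mitotic kinase, read 125 with SEA/LPS and 59.5 with LPS, beside 175 in media and 182 with SEA, and was 2.1-fold higher, and Ccna2 read 153 with SEA/LPS and 79.6 with LPS, beside 240.1 in media and 195 with SEA (log2 difference 0.94). Ccnd2 was highest and Cdk1 and Ccna2 were lowest with LPS. Among 17 BCL2 family and caspase genes only Bcl2 was called, at 35.4 with SEA/LPS and 80.2 with LPS, beside 66.7 in media and 58.4 with SEA and 2.27-fold lower (list median 0.17).

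Lineage factors of myeloid and dendritic cells had 2 lower genes of 19 by the probe sets used, Irf8 and Ikzf1 (3.72% of all genes were lower), and a median of 0.27. Runx1 came to 0.69 by the probe set used, and its other probe sets ran from -0.34 to 1.54. Ikzf1, a zinc finger factor of blood cells, read 44.5 with SEA/LPS and 102 with LPS, beside 46.6 in media and 12.8 with SEA, and was 2.29-fold lower. Cebpa, a myeloid factor, leaned higher at 219 with SEA/LPS and 135 with LPS, beside 539.7 in media and 417 with SEA (log2 difference 0.70). In the list of alternative activation and Th2-linked genes Egr2 was the only called gene of 19 by the probe sets used (median 0.14). Il4ra came to -0.60 by the probe set used, and its other probe sets came to -2.32, with SEA/LPS under the floor, and 0.03. Among 19 TGF-beta and SMAD genes Skil, a repressor of SMAD signalling, was the only called gene, at 1369.7 with SEA/LPS and 646 with LPS, beside 361 in media and 699 with SEA, and was 2.12-fold higher, highest with SEA/LPS (list median 0.11), whereas its other, dimmer probe set came to -0.23. Of 16 histone and chromatin genes Dnmt3a, a DNA methyltransferase, was the only called gene, at 57.0 with SEA/LPS and 120.0 with LPS, beside 61.0 in media and 57.0 with SEA, and was 2.11-fold lower (list median 0.09). The 3 other probe sets of Dnmt3a came to 0.34, 0.00 and 0.23, so the lower value rests on 1 probe set of 4.

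By the probe sets used, no gene was called among 16 Notch pathway genes, 24 lysosomal genes, 13 metallothionein and iron genes, 15 mRNA decay genes, 18 RGS and G protein genes and 23 Rab and vesicle fusion genes. Their medians were -0.09, -0.02, -0.11, 0.06, 0.12 and 0.11, of which the first 3 turned positive with the hybridisation controls (0.15, 0.22 and 0.13). Among the lysosomal genes, other probe sets of Gusb and Ctsz came to -2.18 and -1.03, past 2-fold. Rgs1, a brake on chemokine receptor signalling, read 308 with SEA/LPS and 595.5 with LPS, beside 122 in media and 287 with SEA (log2 difference -0.95), and Arrb1, an arrestin, read 114 with SEA/LPS and 58.7 with LPS, beside 369 in media and 358 with SEA (log2 difference 0.96). Rgs1 was highest and Arrb1 lowest with LPS. Over all 46 lists, 5 had a median below 0 under each scaling (cytokines, chemokines, the TNF superfamily, class I presentation and scavenger receptors), 22 had one above 0 under each scaling, and 19 changed sign with a scaling. The 3 other scalings raised the median of all genes, to 0.01, 0.02 and 0.19 from -0.05, so staying above 0 was the easier outcome. Under other settings the scavenger receptor median reached 0.07. Medians went below 0 for Toll-like receptors, nitric oxide, the TCA cycle, the cell cycle, lineage factors and Rab genes (lowest -0.08).

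**Figure D3:**
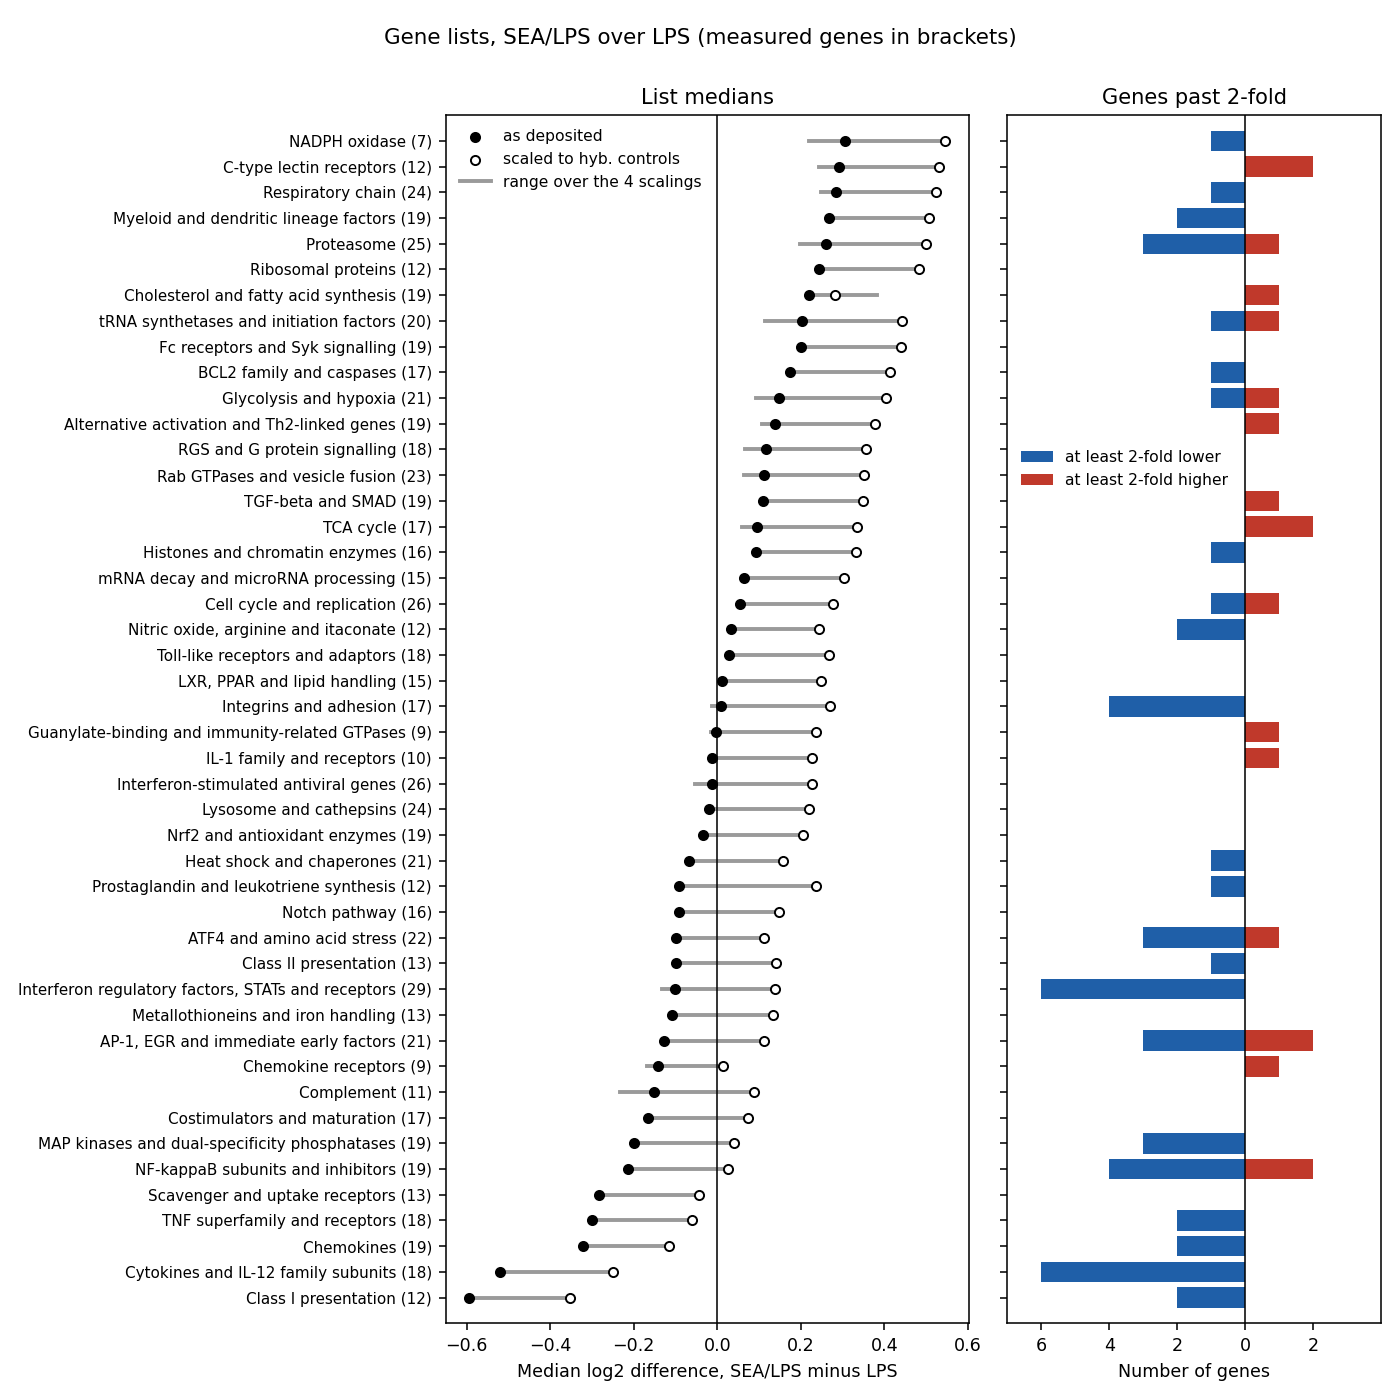
Left, median log2 difference, SEA/LPS minus LPS (x axis), of the measured genes of 46 lists (y axis, number of genes in brackets), as deposited (filled circles), scaled to the hybridisation controls (open circles) and over 4 scalings (grey bars, a range and not an error); right, number of genes at least 2-fold lower (blue, to the left) and higher (red, to the right). Class I presentation at -0.59 and the cytokines at -0.52 lie lowest, and the NADPH oxidase genes at 0.31 highest.

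The genes with the largest higher differences came from many pathways. Rusc1 read 568 with SEA/LPS and 65.5 with LPS, beside 455 in media and 600.3 with SEA, and was 8.67-fold higher by the probe set used, with the LPS array far under the other 3. Its 3 other probe sets came to -0.68, -0.42 and 0.07, so this value rests on 1 probe set. Fen1, a nuclease of DNA replication, read 427 with SEA/LPS and 76.3 with LPS, beside 321 in media and 644 with SEA, and was 5.59-fold higher, and its other probe set came to -0.11. Ciapin1, which acts in iron-sulphur cluster assembly, read 239.7 with SEA/LPS and 49.7 with LPS, beside 33.3 in media and 140.1 with SEA, and was 4.82-fold higher, and its other probe set came to -0.14. For Fen1 and Ciapin1 too the probe sets differed.

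Rnasek read 261 with SEA/LPS and 57.4 with LPS, beside 305 in media and 395 with SEA, and was 4.55-fold higher, by its only probe set in the rule. Zdhhc12, a palmitoyl transferase, read 165 with SEA/LPS and 43.4 with LPS, beside 217 in media and 208 with SEA, and was 3.8-fold higher. Cd300lf, an inhibitory receptor of myeloid cells, read 777 with SEA/LPS and 274 with LPS, beside 687 in media and 859.9 with SEA, and was 2.84-fold higher. Rnasek, Zdhhc12 and Cd300lf were lowest with LPS, and their SEA/LPS values lay within the reach of the arrays without LPS or a little under them. Tfec, a factor of the MiT family in macrophages, read 329.7 with SEA/LPS and 121 with LPS, beside 373 in media and 345 with SEA, and was 2.73-fold higher. Klf13, a zinc finger factor, read 288 with SEA/LPS and 106 with LPS, beside 289.9 in media and 365 with SEA, and was 2.7-fold higher, and with Egr2 it was the other gene whose probe sets were all at least 2-fold higher (the other at 1.11). Olfm1 read 320.5 with SEA/LPS and 107 with LPS, beside 799 in media and 613 with SEA, and was 3.0-fold higher, with its other probe sets at 1.0 and 0.59. Tfec, Klf13 and Olfm1 were lowest with LPS as well. Genes chosen for a difference from the LPS array tend to have that array as an extreme, so such patterns follow in part from the choice. The other genes among the 20 highest were Tnpo1, Jade1, Zfp991, Pom121, Csgalnact2, Tubb4b, Atp5g1 and Akr1c18 besides Idh1, Yars, Pdk1 and Egr3, at log2 differences of 1.44 (Akr1c18) to 1.91 (Tnpo1). Other probe sets lay inside 2-fold, at 0.18 for Tnpo1, 0.11 for Zfp991, 0.63 for Pom121 and -0.04 to 0.82 for Tubb4b.

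Of the brightest genes that lay at the floor with LPS, Clip4 read 180.4 with SEA/LPS and 30.3 with LPS and was at least 5.42-fold higher, although its other probe set came to -0.37. Crcp read 137 with SEA/LPS and 30.4 with LPS (at least 4.11-fold higher), Abca3 read 105 with SEA/LPS and 11.7 with LPS (at least 3.15-fold higher, with its other probe set at 0.67), Cops4 read 100.1 with SEA/LPS and 11.9 with LPS (at least 3.01-fold higher) and Pdzd11 read 93.1 with SEA/LPS and 32.3 with LPS (at least 2.8-fold higher). All of these LPS values lay under the floor and set no upper limit on the fold.

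Further genes among the lowest were not members of the immune lists. Tnfrsf13b, the receptor TACI for the B cell factors BAFF and APRIL, read 151.5 with SEA/LPS and 792.5 with LPS, beside 453 in media and 296 with SEA, and was 5.23-fold lower. Rabac1, which binds prenylated Rab proteins, read 261.5 with SEA/LPS and 1223.5 with LPS, beside 1389.5 in media and 1336 with SEA, and was 4.68-fold lower. Bsg, the surface glycoprotein basigin, read 757 with SEA/LPS and 2643.5 with LPS, beside 2415 in media and 2145 with SEA, and was 3.49-fold lower. For Rabac1 and Bsg the SEA/LPS array stood under 3 arrays that lay close together, a pattern unlike that of the cytokine chains. Edn1, the precursor of endothelin-1, read 50.5 with SEA/LPS and 223.5 with LPS, beside 19.1 in media and 5.3 with SEA, and was 4.43-fold lower. Nppc, the precursor of C-type natriuretic peptide, read 146 with SEA/LPS and 593 with LPS, beside 34.5 in media and 36.8 with SEA, and was 4.06-fold lower. Sh3tc1 read 97.6 with SEA/LPS and 412 with LPS, beside 82.7 in media and 63.1 with SEA, and was 4.22-fold lower. Edn1, Nppc and Sh3tc1 were highest with LPS.

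Rab4b, a GTPase of endosome recycling, read 99.0 with SEA/LPS and 386 with LPS, beside 342 in media and 325 with SEA, and was 3.9-fold lower, and like Rabac1 it was low on the SEA/LPS array alone. The remaining genes of the 20 lowest were Ercc2, Exosc4, Msgn1 and Rrp7a, at log2 differences of -1.82 (Rrp7a) to -2.0 (Ercc2). The other probe set of Exosc4 came to -0.40. Of the brightest genes at the floor with SEA/LPS, Akap8l read 31.3 with SEA/LPS and 148 with LPS (at least 4.45-fold lower), Cplx2 read 32.9 with SEA/LPS and 132 with LPS (at least 3.98-fold lower), Tmem94 read 30.6 with SEA/LPS and 128.5 with LPS (at least 3.86-fold lower), Gga1 read 28.1 with SEA/LPS and 128 with LPS (at least 3.83-fold lower) and Rce1 read 22.2 with SEA/LPS and 122 with LPS (at least 3.67-fold lower). Csf3r, the G-CSF receptor and a neutrophil marker, read 12.2 with SEA/LPS and 108 with LPS, beside 58.1 in media and 50.4 with SEA, and was at least 3.26-fold lower, with SEA/LPS under the floor.

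Genes with several probe sets give the same RNA more than 1 reading, which tests the probes and not the samples. Of 329 lower genes 88 had other probe sets in the rule; the mean of those lay below 0 in 73 (83.0%) and was at least 2-fold lower in 26 (29.5%), with a median of -0.54. Of 132 higher genes 46 had other probe sets; their mean lay above 0 in 28 (60.9%) and was at least 2-fold higher in 3 (6.52%), with a median of 0.13. Over all 2996 genes with other probe sets, those lay below 0 in 54.7% and above 0 in 45.1%, and were at least 2-fold lower in 5.74% and higher in 1.23%.

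All probe sets were at least 2-fold lower in 22 genes: Stat2, Stat5a, Stat5b, Irf8, Il12b, Ptgs2, Itga5, Ncf1, H2-Ab1, Tapbp, Arpc4, Nol6, Capn1, Ubac2, Wdr48, Fbl, Safb2, H2ac19, Hbegf, Sh3bp5, Mdm2 and Mmp24. The last 6 of these names were added after their values were seen. In 2 genes, Egr2 and Klf13, all were at least 2-fold higher. Arpc4, a subunit of the actin-branching Arp2/3 complex, read 204 with SEA/LPS and 624 with LPS, beside 331 in media and 411 with SEA, and was 3.06-fold lower (its other probe set -1.33). Capn1, a calcium-dependent protease, read 103 with SEA/LPS and 288 with LPS, beside 464 in media and 300.0 with SEA, and was 2.79-fold lower (its other probe set -1.22). Nol6, a nucleolar protein of ribosome assembly, read 186 with SEA/LPS and 519 with LPS, beside 406 in media and 301 with SEA, and was 2.79-fold lower (its other probe set -2.44). Arpc4 and Nol6 were highest with LPS, and Capn1 was lowest with SEA/LPS.

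**Figure D4:**
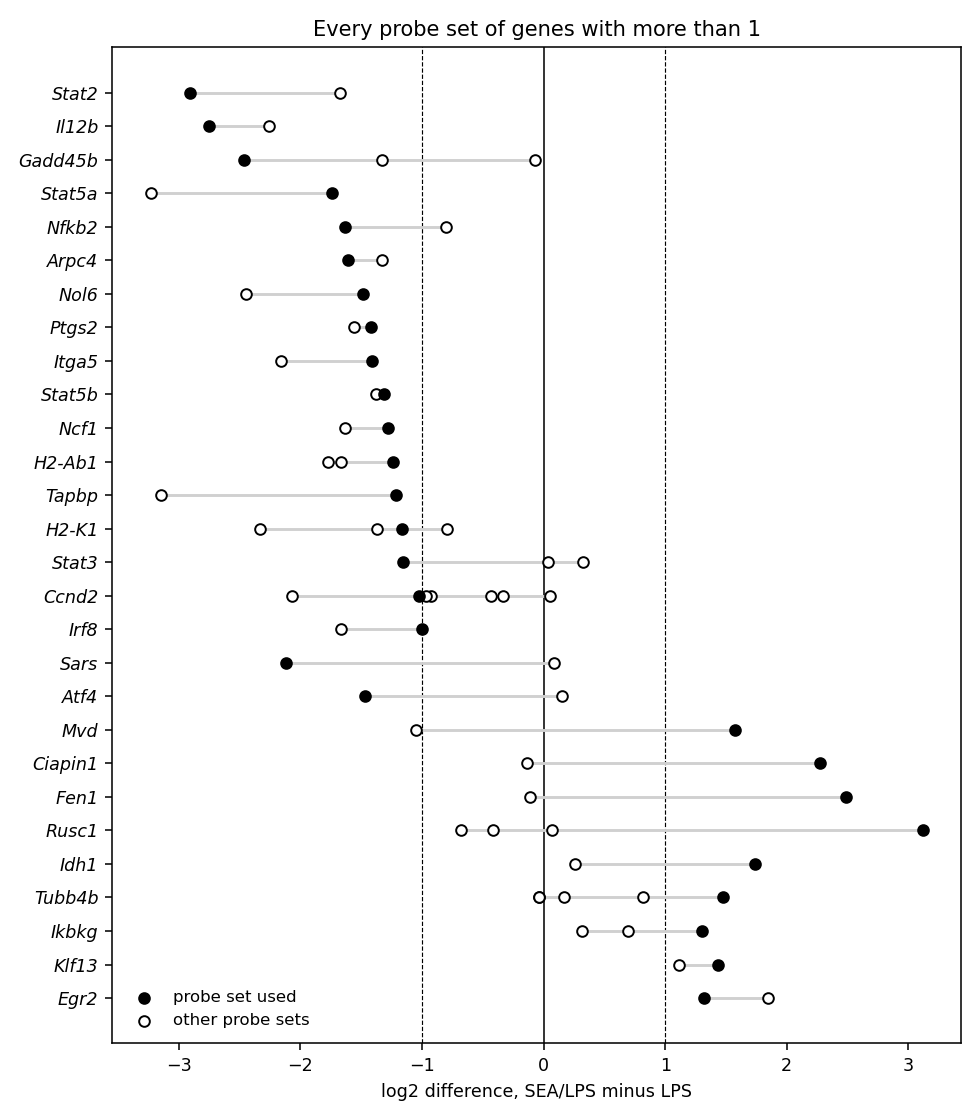
Log2 difference, SEA/LPS minus LPS (x axis), of each probe set in the rule for 28 genes with more than 1 (y axis); filled circles are the probe set used for the gene, open circles its others, grey lines join the probe sets of a gene and dashed lines mark 2-fold. All probe sets of Stat2, Il12b, Stat5a and H2-Ab1 lie past 2-fold on the lower side, whereas those of Rusc1 run from -0.68 to 3.12 and those of Mvd from -1.05 to 1.57.

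Of the genes named here by the rule for named genes, 72 were at least 2-fold lower, and 29 of these stayed so under every alternative setting run for them: Stat2, Il23a, Il12b, Gadd45b, Tnfrsf13b, Nos2, Rabac1, Edn1, Sh3tc1, Nppc, Ercc2, Psmb8, Rab4b, Nfkbib, Ppp1r15a, Rrp7a, Bsg, Ebi3, Stat5a, Il10, Nfkb2, Arpc4, Batf, Nol6, Capn1, Ptgs2, Itga5, Stat5b and Ncf1. Of 39 higher named genes 11 stayed so: Fen1, Rnasek, Zdhhc12, Pom121, Olfm1, Cd300lf, Tfec, Atp5g1, Clec5a, Egr2 and Gbp3. The other named genes came inside 2-fold, or turned, under at least 1 alternative. Leaving out probe sets that may read several genes or transcripts could not be run for genes with only such probe sets. Among those that stayed, these were Edn1, Rabac1, Bsg, Sh3tc1, Psmb8, Rab4b, Nfkbib, Nfkb2, Stat5a and Stat5b. On the higher side they were Fen1, Zdhhc12, Olfm1, Atp5g1 and Gbp3. Fen1 stayed although its other probe set came to -0.11.

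The difference between SEA/LPS and LPS was then set against the response to LPS. To treat both LPS arrays alike, genes were grouped by how far the average log2 signal of both arrays with LPS lay from media. Of 437 genes at least 2-fold above media by that mean, 43 were lower with SEA/LPS (9.84%, against 3.72% of all genes) and 4 were higher (0.915%, against 1.49%), 66.6% lay below 0 and the median was -0.16. Of 532 genes at least 2-fold under media, 24 were lower (4.51%) and 45 were higher (8.46%), 37.8% lay below 0 and the median was 0.20. In the other 7880 genes 262 were lower (3.32%), 83 were higher (1.05%) and the median was -0.05. These shares describe 3 arrays, and no test of the differences between them was made.

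**Figure D5:**
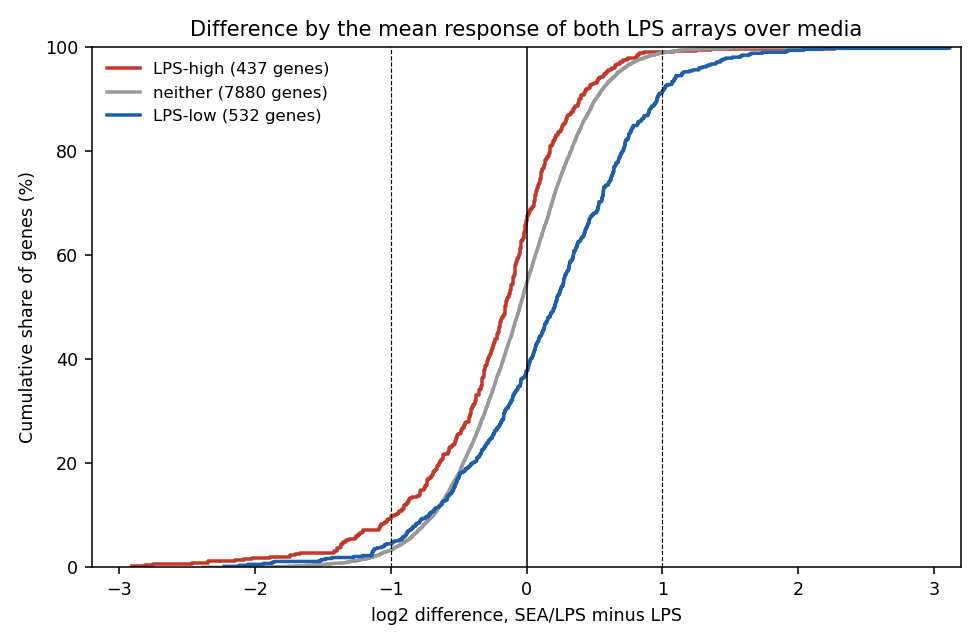
Cumulative share of genes (y axis, percent) by log2 difference, SEA/LPS minus LPS (x axis), for genes whose mean over both LPS arrays was at least 2-fold above media (red, 437 genes), at least 2-fold under media (blue, 532 genes) or neither (grey, 7880 genes), each gene measured on 1 array per condition; dashed lines mark 2-fold. At 0 the red curve stands at 66.6% and the blue curve at 37.8%.

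The 4 motifs searched were the kappaB consensus, the interferon response element core GAAANNGAA, the AP-1 site TGANTCA and the cyclic AMP response element TGACGTCA, each on both strands of the 250 bases before the RefSeq start, where overlapping matches count separately but a gene counts once. The kappaB consensus was present in 12.6% of 262 lower genes with a promoter in the table, 9.26% of 108 higher genes, 11.1% of 7193 measured genes and 8.23% of all 27025 genes of the table. Among 349 genes at least 2-fold above media by the mean log2 of both LPS arrays it was present in 15.5%, and in 7 of the 34 that were lower with SEA/LPS (20.6%) beside 14.7% of the 312 within 2-fold. The interferon core was present in 8.78% of lower, 13.9% of higher, 7.44% of measured and 8.18% of all genes. The AP-1 site was present in 9.92% of lower, 6.48% of higher, 6.30% of measured and 7.82% of all genes, and the cyclic AMP element in 4.20%, 3.70%, 2.82% and 1.77%. Behind the shares of lower and higher genes stand 33 of 262 and 10 of 108 genes for kappaB and 23 and 15 for the interferon core. For Il23a and Nos2 no promoter is shown.

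At the rule's threshold the nearest member read 33.4 on its brighter array and the nearest probe set outside read 33.3. Of the members, 938 read at most 40 on the brighter array, too near the floor for a 2-fold difference, while 807 probe sets outside the rule read 28 or more.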

How the data were processed

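RNA of 4 samples was read on Affymetrix arrays with 22690 probe sets, 1 array a sample. The deposited values are intensities on a linear scale, in which the arrays share a trimmed mean (2% off each end); which software the authors ran is not given in the sources here. Gene symbols came from the platform annotation, updated through Entrez IDs (20351 of 20380 probe sets with 1 symbol matched) to the GRCm38.p6 gene table. Left out were 64 control probe sets, 691 with several symbols and 1555 without a symbol. Deposited intensities were raised to a floor of 33.3, the 40th percentile of the 4 columns pooled, and log2 was taken; no pseudocount was added. The value of a gene was that of its probe set with the highest mean log2, and its difference was SEA/LPS minus LPS. A difference of 2-fold or more was called, with no test, since each group had 1 array; the number of arrays limits the precision. Calculations used Python 3.11.15 with pandas 2.3.3 and numpy 2.4.6, and were tested on simulated data. Promoters came from RefSeq on GRCm38.p6.

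The members and gene lists were chosen with earlier results of these data known. Named genes were the 20 highest and 20 lowest above the floor on both arrays, up to 15 a direction with all probe sets past 2-fold, the 6 brightest a direction with 1 array at the floor, every called list member and the 4 widest of each list, Il10, and defining cell type markers; Il6, Tnf, Il1b, Jun, Ier2, Ifngr1, Stat4, Nfkbia, Arg1, Ifit1, Cxcl10, Safb2, H2ac19, Hbegf, Sh3bp5, Mdm2 and Mmp24 were added after their values were seen. Alternatives were 3 other scalings, 2 other floors, a log2 of signal plus the floor, 2 other choices of probe set and leaving out probe sets that may read several genes or transcripts.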

Additional observations from a re-analysis of the deposited data

Results flagged for a closer look

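In 6 of the 102 genes that differed at least 2-fold between SEA and media, the 2 differences went opposite ways: higher with SEA than in media and lower with SEA/LPS than with LPS, each at least 2-fold. Of the 55 that were higher with SEA than in media 6 (10.9%) were lower in SEA/LPS over LPS and 2 were higher. Of the 47 that were lower with SEA the same comparison gave 8 lower (17.0%) and 0 higher, beside 3.72% lower and 1.49% higher over all genes. The share that was lower with SEA/LPS was thus no larger in the genes that were higher with SEA. The differences were not tested, since each rests on 4 different arrays with no replicate. Cxcl1, the neutrophil attractant, differed by 1.27 without LPS and -1.08 with it on the log2 scale, a gap of -2.36. Its signals were 187 with SEA and 77.2 in media, and 2121 with SEA/LPS and 4491 with LPS, so the difference without LPS lay at a far lower signal.

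The other 5 genes had signals nearer to the floor of 33.3 on all 4 arrays, and for 4 of them (Rtbdn, Rcor2, Gckr and Lamb3) at least 1 signal lay under it and was raised to it, so that their gaps are lower bounds in size. Rtbdn differed by 1.26 and, as a bound, -1.45, a gap of -2.71 or wider, at signals of 96 with SEA, 40 in media, 16.3 with SEA/LPS and 90.9 with LPS. Rcor2 differed by 1.30 and -1.32, both bounds, a gap of -2.62 or wider, at 81.9, 18.1, 15.9 and 83.2 in the same order. Both were low in media and with SEA/LPS and read alike with SEA and with LPS. Gckr differed by 1.43, as a bound, and -1.03, a gap of -2.46 or wider, at 89.6, 33, 37.1 and 75.9. Cyp4f13 differed by 1.01 and -1.21, a gap of -2.22, at 131, 65.2, 50.1 and 116. Lamb3 differed by 1.10 and, as a bound, -1.08, a gap of -2.17 or wider, at 84.7, 39.6, 26.1 and 70.2.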

How the results depend on the processing

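No paired analysis was possible because each group had 1 array and the result comes from no test. The numbers of called genes followed the floor and the scaling, and the share that was higher followed the scaling. Against 132 higher and 329 lower genes, scaling to the hybridisation controls gave 299 and 134, a floor at the 20th percentile gave 491 and 949, a floor at the 60th percentile gave 57 and 152, and a log2 of the signal plus the floor gave 73 and 186; a lower floor tests more genes and a higher floor fewer. The mean of the probe sets of a gene gave 84 higher genes. The share of called genes that were higher was 28.6% as deposited, 39.5% by the 75th percentile, 43.3% by quantile normalization and 69.1% with the hybridisation controls. Over probe sets, against 218 higher and 626 lower, there were 470 and 296 with the hybridisation controls, 875 and 1696 with the lower floor, 89 and 284 with the higher floor, 113 and 382 with the log2 of signal plus the floor, and 139 and 396 without probe sets that may read several genes or transcripts; quantile normalization gave 329 higher. The cause of the scaling shift was not tested.

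For the 111 called genes under the rule for named genes, 970 alternative values were computed: 831 kept the direction and the 2-fold size, 132 kept the direction inside 2-fold and 7 turned. Without the probe sets that may read several genes or transcripts, the log2 difference turned to -0.14 for Ciapin1, -0.37 for Clip4, -0.42 for Rusc1, -1.05 for Mvd and 0.038 for Stat3. That setting gave no value for called genes with only such probe sets. With the probe set brightest on the 2 arrays it turned to -1.05 for Mvd and 0.087 for Sars. Dim signals limit the differences of 421 genes at the floor with LPS and 854 with SEA/LPS to bounds, and no array was repeated.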

Other observations

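Probe sets without a single gene symbol lay outside the comparison. Of 473 probe sets with several symbols above the floor, 9 were at least 2-fold higher and 9 lower with SEA/LPS (1.90% each), and their median log2 difference was 0.10. Of 790 probe sets with no symbol, 13 were higher (1.65%) and 40 lower (5.06%), and their median was -0.09.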
